A study of Homo sapiens with 8 samples.

Results

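PCNA peaks next to the centromere of chromosome 4 were described in 4 deposited lists of PCNA chromatin immunoprecipitation. A peak was included when it lay on chromosome 4 and started between 48 and 54 Mb on the hg19 assembly, a window that holds the centromere. The rule used position only, but it was set with earlier results of these data known. It gave 544 of the 4020 peaks of the 4 lists, 129 in MCF10A cells at 1 h, 280 in MCF10A cells at 2 h, 60 in TUBG-shRNA-MCF10A at 1 h and 75 in TUBG-shRNA-MCF10A at 2 h.

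MCF10A is a line of human breast epithelial cells that does not form tumours. TUBG-shRNA-MCF10A cells are the same line after stable transfection with a short hairpin RNA against γ-tubulin and selection in Zeocin, and no line with a control hairpin is among the 4 conditions. All cells were held in early S phase with thymidine and were collected 1 or 2 h after release, with 2 libraries of anti-PCNA chromatin per condition, 8 in all. The authors called peaks on both libraries of a condition together, against whole-cell lysate, so replicates cannot be compared and no p-value is given for any difference between lists. The fragment length set for peak calling, given by the shortest peak of a list, also differed. It was 121 and 47 bp in MCF10A cells at 1 and 2 h, and 112 and 115 bp in TUBG-shRNA-MCF10A. Its part in the differences of peak number, density and spacing below was not tested. Intervals below are 95% intervals of counting error only. Peaks of a list are neighbours from the same libraries and not replicates of a condition, so these intervals are too narrow.

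PCNA is the ring-shaped sliding clamp that encircles DNA and tethers DNA polymerases during replication, and it is loaded by replication factor C. γ-Tubulin is best known for nucleating microtubules at the centrosome. DNA next to human centromeres is rich in tandem repeats, among them alpha satellite and the human satellites II and III, which consist of diverged copies of the motif CATTC. Near-identical copies lie on several chromosomes, so a short read from one copy can align to another, and how such reads were treated is not given in the sources used here. In the RefSeq gene order (GRCh38.p14), the last protein-coding gene before the chromosome 4 centromere on the short arm is *CWH43*, which takes part in remodelling the lipid of GPI anchors, and the first on the long arm is *DCUN1D4*, which acts in cullin neddylation. Between both genes, that table lists 11 pseudogenes, 1 long non-coding RNA and 0 protein-coding genes. It is on another assembly, so peaks were not placed relative to genes.

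The 544 peaks were not spread over the window. All but 2 fell into a pair of dense stretches on the short-arm side, which were delimited after the positions were seen, by a gap of more than 20 kb. The outer stretch ran over 65.4 kb, from 49093269 to 49158624 on chromosome 4. The inner stretch ran over 26.7 kb, from 49633381 to 49660087, and lay beside the unsequenced centromere gap of the assembly. Between them were 475 kb with a single peak. That peak, from 49539198 to 49539368, was listed in MCF10A cells at 1 h, enriched 4.59-fold over the local background with 5.86 as −log10 of its q-value, and no peak of another list touched it. The only peak on the long-arm side, from 53686388 to 53686444, was listed in MCF10A cells at 2 h, enriched 6.89-fold with a −log10 q-value of 8.59. It had no counterpart in the other lists. On the rest of chromosome 4 there were only 2, 37, 2 and 2 peaks in the 4 lists (in the order MCF10A 1 h, MCF10A 2 h, TUBG-shRNA-MCF10A 1 h and TUBG-shRNA-MCF10A 2 h).

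**Figure D1:**
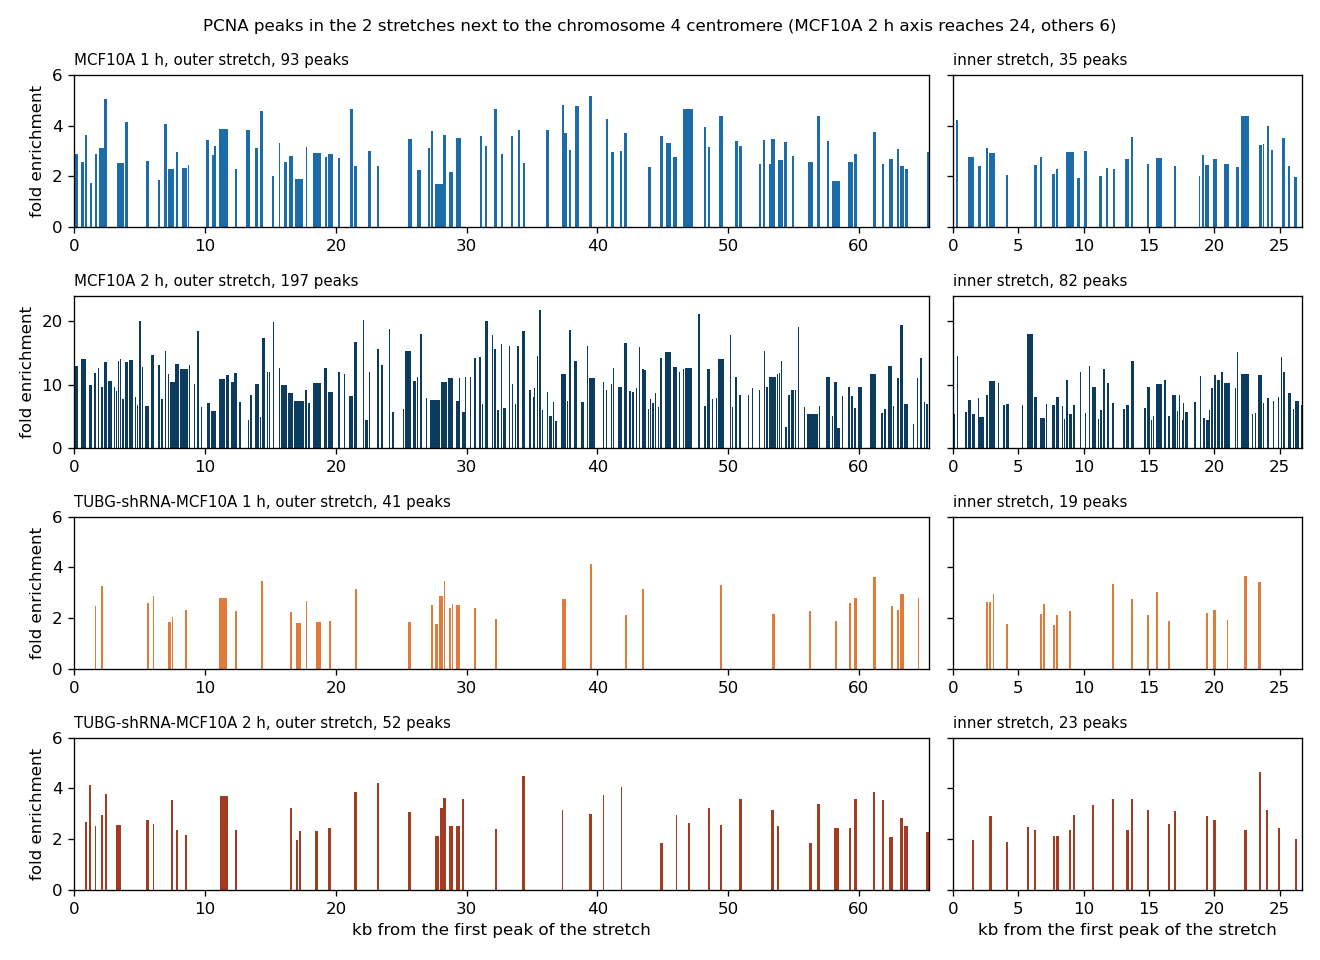
Fold enrichment of each PCNA peak against its distance in kb from the first peak of the outer (left) or inner (right) stretch, with 1 row per list and bars as wide as the peaks. The vertical axis reaches 24 in MCF10A cells at 2 h and 6 in the other rows. In MCF10A cells at 2 h, 197 and 82 peaks fill both stretches, and the 41 and 19 peaks of TUBG-shRNA-MCF10A at 1 h leave wide spaces. The list of MCF10A cells at 2 h was called with the shortest fragment length, and its part was not tested.

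Both stretches were occupied in every list, and in a similar proportion. The outer stretch held 93 of the 129 peaks in MCF10A cells at 1 h (72.1%, Wilson interval 63.8 to 79.1), 197 of 280 at 2 h (70.4%, 64.8 to 75.4), 41 of 60 in TUBG-shRNA-MCF10A at 1 h (68.3%, 55.8 to 78.7) and 52 of 75 at 2 h (69.3%, 58.2 to 78.6). These shares differed by less than their counting intervals. The density differed between lists, which also differed in fragment length, far more than between stretches. In MCF10A cells, there were 14.2 peaks per 10 kb in the outer and 13.1 in the inner stretch at 1 h, and 30.1 and 30.7 at 2 h. In TUBG-shRNA-MCF10A, the densities were 6.27 and 7.11 at 1 h, and 7.96 and 8.61 at 2 h. Peaks covered 35.5% of the outer stretch in MCF10A cells at 1 h and 51.6% at 2 h, but 12.0% and 15.7% in TUBG-shRNA-MCF10A. In every complete 10 kb bin of both stretches, MCF10A cells at 2 h had the most peaks, from 25 to 37 per bin in the outer stretch, and TUBG-shRNA-MCF10A at 1 h had between 3 and 9 there.

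These peaks made up 23.0% of the MCF10A list at 1 h (19.7 to 26.6), 10.1% at 2 h (9.05 to 11.3), 20.7% of the TUBG-shRNA-MCF10A list at 1 h (16.4 to 25.7) and 18.8% at 2 h (15.2 to 22.9). Among the 100 peaks with the highest −log10 q-value, 31 (22.8 to 40.6) were chromosome 4 pericentromeric in MCF10A cells at 1 h, 56 (46.2 to 65.3) in MCF10A cells at 2 h, 26 (18.4 to 35.4) in TUBG-shRNA-MCF10A at 1 h and 24 (16.7 to 33.2) at 2 h. The lists held 562, 2768, 290 and 400 peaks, so the strongest 100 are a much smaller part of the MCF10A list at 2 h than of the others, and these counts are not comparable between lists.

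The number of peaks was compared between time points and between cell populations. The MCF10A list at 2 h had the shortest fragment length, and its part in the ratios with that list was not tested. MCF10A cells had 2.171 times as many of these peaks at 2 h as at 1 h (95% exact binomial interval 1.76 to 2.70). All other peaks of the same lists numbered 433 at 1 h but 2488 at 2 h, which is 5.75 times as many (5.19 to 6.38). Chromosome 10, which also holds many peaks, gave 5.90 (4.56 to 7.73), and chromosome 16 gave 2.83 (2.10 to 3.87). Here and below, chromosomes 10 and 16 were taken whole, including their arms. In TUBG-shRNA-MCF10A, the ratio of 2 h to 1 h was 1.25 with an interval that includes 1 (0.878 to 1.79), and that of all other peaks was 1.41 (1.19 to 1.68). Both stretches gave similar ratios, 2.12 (outer) and 2.34 (inner) in MCF10A cells, and 1.27 and 1.21 for the same stretches in TUBG-shRNA-MCF10A.

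Between cell populations, MCF10A cells had 2.15 times as many of these peaks as TUBG-shRNA-MCF10A at 1 h (1.57 to 2.97), against 1.88 for all other peaks (1.60 to 2.22). At 2 h, the ratio was 3.73 (2.88 to 4.88), against 7.66 for all other peaks (6.82 to 8.62). On chromosome 10, it was 1.87 (1.23 to 2.86) at the earlier and 9.25 (6.77 to 12.9) at the later time point. Chromosome 16 gave 0.984 (0.677 to 1.43) and then 2.36 (1.78 to 3.16). Thus, the pericentromere of chromosome 4 followed the rest of the lists at 1 h within counting error and had a lower ratio at 2 h. In base pairs covered, MCF10A cells exceeded TUBG-shRNA-MCF10A by a ratio of 2.96 at 1 h and 3.28 at 2 h. Between time points, the covered length at 2 h was 1.48 times that at 1 h in MCF10A cells and 1.33 times in TUBG-shRNA-MCF10A. The direction of the number ratios depended on counting peaks singly. When peaks within 1 kb were joined, MCF10A cells had fewer regions than TUBG-shRNA-MCF10A, since their closely spaced peaks merged into longer ones. At 1 h, the interval of that ratio included 1 (0.302 to 1.10). Counting only summits with at least 47 reads left only 79 peaks in MCF10A cells at 2 h, 0.632 times the number at 1 h and 1.16 times that of TUBG-shRNA-MCF10A at 2 h (0.829 to 1.63), and a q-value of at most 1e-10 gave 3.63 between time points.

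**Figure D2:**
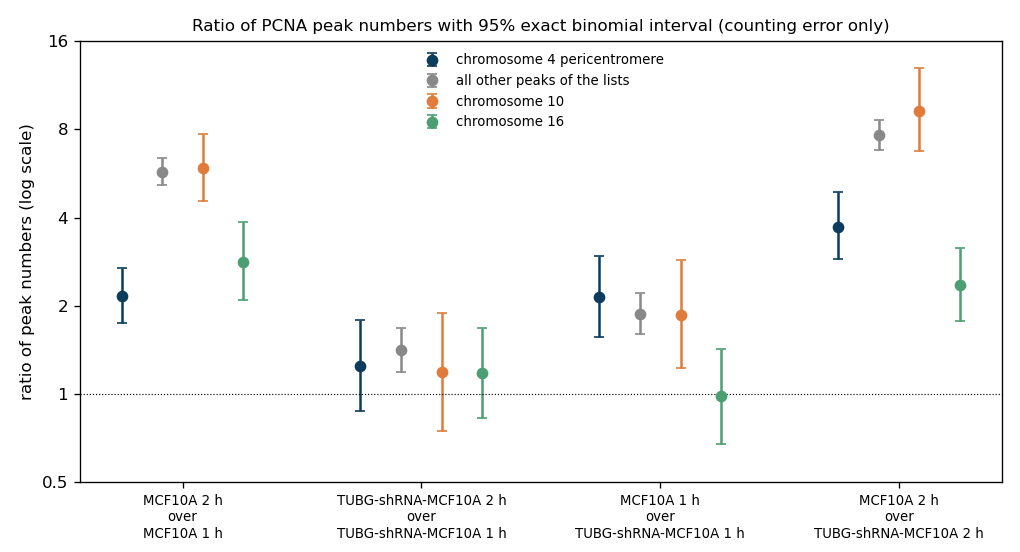
Ratio of the numbers of PCNA peaks (logarithmic axis) for 4 pairs of lists. Points are for the chromosome 4 pericentromere, all other peaks of the lists, and the whole of chromosome 10 and of chromosome 16. Bars are 95% exact binomial intervals, which cover counting error only. The fragment length set for peak calling differed between lists and was shortest in MCF10A cells at 2 h. The chromosome 4 ratios of 2.171 (MCF10A, 2 h over 1 h) and 3.73 (MCF10A over TUBG-shRNA-MCF10A, 2 h) lie below those of all other peaks, 5.75 and 7.66.

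Spacing was measured between the summits of adjacent peaks, the positions of highest read number, within each stretch. The MCF10A list at 2 h had the shortest fragment length, and its part in the spacing was not tested. The median distance was 576.5 bp in MCF10A cells at 1 h (quartiles 410 and 951 bp) and 279 bp at 2 h (quartiles 214 and 405 bp). In TUBG-shRNA-MCF10A, the medians were 1068 bp at 1 h (quartiles 477 and 1962 bp) and 1069 bp at 2 h (quartiles 501 and 1561 bp). Distances under 500 bp made up 42.9% and 85.9% in MCF10A cells at 1 and 2 h, and 25.9% and 23.3% in TUBG-shRNA-MCF10A. No distance in MCF10A cells at 2 h exceeded 1059 bp, whereas the longest was 2469 bp in MCF10A cells at 1 h, 5893 bp in TUBG-shRNA-MCF10A at 1 h and 4214 bp at 2 h. The order of the lists was the same in both stretches, except that TUBG-shRNA-MCF10A at 1 h had the wider median spacing in the outer stretch (1288 against 987 bp at 2 h) and the narrower one in the inner stretch (1016 against 1144 bp). From the end of a peak to the start of the next, the medians were 312.5 and 123 bp in MCF10A and 899 and 814 bp in TUBG-shRNA-MCF10A at 1 and 2 h.

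**Figure D3:**
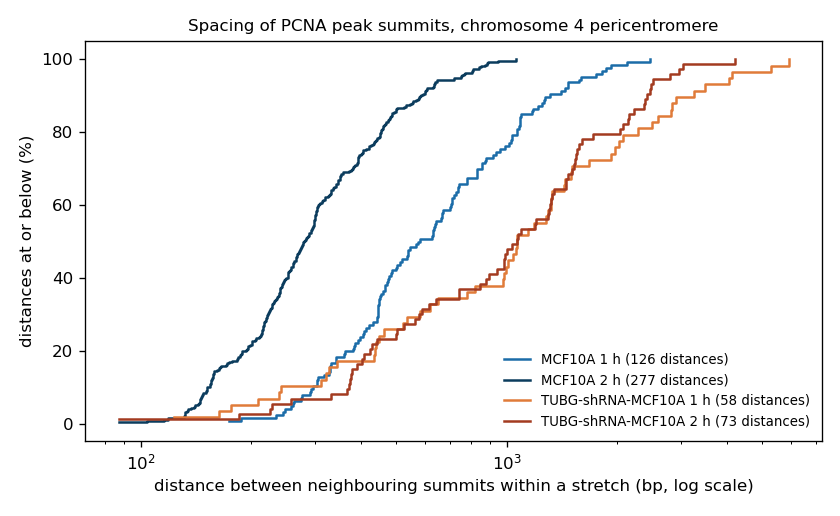
Cumulative percentage of the distances between adjacent PCNA summits within a stretch (bp, logarithmic axis), 1 line per list. The line of MCF10A cells at 2 h lies farthest left (median 279 bp), that of MCF10A cells at 1 h in the middle (576.5 bp), and both lines of TUBG-shRNA-MCF10A run close together on the right (1068 and 1069 bp). The list of MCF10A cells at 2 h was called with the shortest fragment length, and its part was not tested.

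Joining peaks at most 1 kb apart showed the same difference, between the same lists of unlike fragment length, in another way. In MCF10A cells at 2 h, 279 of the 280 peaks formed 1 region per stretch, and the outer region, from 49093269 to 49158567, held 197 peaks in 65.3 kb. In MCF10A cells at 1 h, 17 regions remained, and the longest, from 49103367 to 49116549, held 22 peaks in 13.2 kb. TUBG-shRNA-MCF10A had 29 regions at 1 h and 36 at 2 h. In each of these lists, 16 of the regions were a single peak and the longest region spanned 3.18 and 2.79 kb. In all, the joined regions spanned 71.2 and 92.1 kb in MCF10A cells and 23.7 and 30.4 kb in TUBG-shRNA-MCF10A at 1 and 2 h.

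Peaks of different lists often overlapped. Where peaks are dense, overlap is frequent whatever their exact position, and MCF10A peaks at 2 h covered 51.6% of the outer and 49.7% of the inner stretch, so the shares below are descriptions and the other peaks of the lists, which are less dense, are no measure of overlap by position alone. By the criterion of at least 25% of both peaks shared, 125 of the 129 peaks of MCF10A cells at 1 h (96.9%, Wilson interval 92.3 to 98.8) lay at a peak of these cells at 2 h, whereas the share was 79.7% over the whole list and 74.6% (70.3 to 78.5) among all other peaks. Of the 4 that did not, 3 touched a 2 h peak by at least 1 bp, and the fourth was the isolated peak between the stretches. With summits at most 50 bp apart as the criterion, the share was 68.2%. In the other direction, 127 of the 280 peaks at 2 h (45.4%, 39.6 to 51.2) lay at a 1 h peak, against 16.3% of the whole list and 13.0% (11.8 to 14.4) of all other peaks. In TUBG-shRNA-MCF10A, 45 of the 60 peaks at 1 h (75%, 62.8 to 84.2) lay at a 2 h peak, against 58.6% of the whole list, and 45 of the 75 at 2 h (60.0%, 48.7 to 70.3) lay at a 1 h peak, against 42% of the whole list. The 15 peaks at 1 h without a counterpart had a median −log10 q-value of 5.20, and the 45 with one had 7.76. In the other direction, the medians were 8.15 for the 30 peaks without a counterpart and 7.98 for those with one.

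Peaks of TUBG-shRNA-MCF10A lay mostly where MCF10A cells had peaks. At 1 h, 52 of the 60 (86.7%, 75.8 to 93.1) lay at an MCF10A peak, against 56.2% of the whole list and 48.3% (41.9 to 54.7) of all other peaks. At 2 h, 69 of the 75 (92.0%, 83.6 to 96.3) did so, against 83.2% of the whole list and 81.2% (76.6 to 85.1) of all other peaks. The other 6 of the 75 touched an MCF10A peak by at least 1 bp. The strongest of the 8 peaks at 1 h without an MCF10A counterpart of that time, from 49099260 to 49099382, was enriched 2.88-fold with a −log10 q-value of 12.2. The reverse shares were low, 49 of 129 MCF10A peaks at 1 h (38.0%, 30.1 to 46.6), against 28.1% of the whole list, and 70 of 280 at 2 h (25%, 20.3 to 30.4), against 11.8%. They differed with the −log10 q-value of the MCF10A peak. This split was made for the chromosome 4 peaks only, so it has no share over the whole lists beside it. In the top 25% of MCF10A peaks by −log10 q-value, 20 of 32 (62.5%, 45.3 to 77.1) at 1 h and 26 of 70 (37.1%, 26.8 to 48.9) at 2 h had a counterpart, and in the bottom 25% 8 of 32 (25%, 13.3 to 42.1) and 4 of 70 (5.71%, 2.24 to 13.8). A list ends at a q-value threshold, so a position without a peak in the shorter list may still carry PCNA there.

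**Figure D4:**
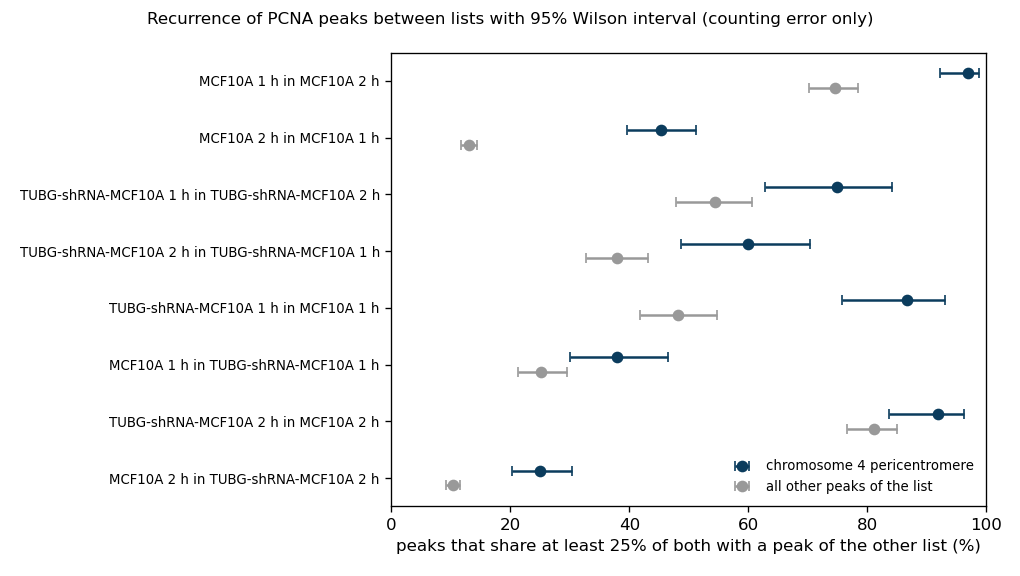
Percentage of peaks of the first-named list that share at least 25% of both peaks with a peak of the second-named list, for the chromosome 4 pericentromere and for all other peaks, with 95% Wilson intervals of counting error. The chromosome 4 point lies to the right of the point of all other peaks in each of the 8 rows, from 25% against 10.3% in the last row to 96.9% against 74.6% in the first. The intervals overlap for TUBG-shRNA-MCF10A in MCF10A cells at 2 h, 92.0% against 81.2%. The other peaks are less dense and no measure of overlap by position alone.

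By the 25% criterion, 45.4% of the chromosome 4 peaks of MCF10A cells at 2 h lay at a 1 h peak, against 16.3% of the whole list. Touching by at least 1 bp was counted for the chromosome 4 peaks only, and 130 of the 280 touched no 1 h peak. The median distance of these 130 to the nearest 1 h summit was 360 bp, in stretches where 1 h summits were a median of 576.5 bp apart. Their median width was 87 bp, against 184 bp for the touching ones, a split in which wide peaks touch more readily, and their median fold enrichment was 8.47 against 10.3. Some were among the strongest of the list. The peak from 49128826 to 49128974 ranked 4th in the whole MCF10A list at 2 h, enriched 21.8-fold, the most of all these peaks, at a −log10 q-value of 54.1, and the other 3 lists had no peak there. Conversely, 25 of the 129 peaks at 1 h each touched more than 1 peak at 2 h, a count that was not made for the whole list.

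Linking peaks of different lists by the same criterion gave 277 sites. A peak in each of the 4 lists was found at 40 sites (14.4%), 28 in the outer and 12 in the inner stretch, in 3 lists at 34, in 2 lists at 59 and in a single list at 144. Of the 144 sites, 141 belonged to MCF10A cells at 2 h and 3 to MCF10A cells at 1 h, and no site belonged to TUBG-shRNA-MCF10A alone. MCF10A cells at 2 h supplied 280 of the 544 peaks, which covered 51.6% of the outer and 49.7% of the inner stretch. Sites were built from the chromosome 4 peaks only, so these counts have no share over the whole lists beside them. The most frequent combinations after the single list were MCF10A cells at both time points (49 sites), all 4 lists (40) and all but TUBG-shRNA-MCF10A at 1 h (24). The 40 sites included 45 of the 60 peaks of TUBG-shRNA-MCF10A at 1 h and 43 of 75 at 2 h, but 42 of 129 and 44 of 280 in MCF10A cells. Sites are chains of linked peaks, so peaks of the same site need not all overlap each other, and 31 of the 40 held 1 peak per list. Summits at these sites agreed within 10 bp over the 4 lists at 4 sites and within 50 bp at 13. The median spread was 76.5 bp and the largest 673 bp. With summits at most 50 bp apart as the criterion, 20 sites were found in all 4 lists, and with a q-value limit of 1e-05, 24. Between pairs of lists, the median distance of linked summits was 8 bp between time points in TUBG-shRNA-MCF10A and 9 bp between cell populations at 1 h. It was 17 bp and 38 bp in the pairs that include MCF10A cells at 2 h.

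The site whose lowest −log10 q-value over the 4 lists was highest, 13.3, was on the outer stretch at 49152891 to 49153118. Its 4 summits lay within 18 bp, from 49152994 to 49153012. Its fold enrichment was 2.87 in MCF10A cells at 1 h and 6.31 at 2 h, and 2.81 in TUBG-shRNA-MCF10A at 1 h and 3.59 at 2 h. A similar site at 49098641 to 49098975 also had its summits within 18 bp. Its fold enrichments were 2.62 in MCF10A cells at 1 h and 6.63 at 2 h, and 2.60 in TUBG-shRNA-MCF10A at 1 h and 2.76 at 2 h. The site at 49156435 to 49156702, near the inner end of the outer stretch, held the strongest chromosome 4 peak of both MCF10A cells at 2 h and TUBG-shRNA-MCF10A at 1 h. It ranked 1st in the whole MCF10A list at 2 h, enriched 19.4-fold with 64 reads at the summit over a background of 2.34, and 6th in the TUBG-shRNA-MCF10A list at 1 h, enriched 2.97-fold with 125 reads over 41.4. At the same site, the peak of MCF10A cells at 1 h was enriched 2.41-fold with 127 reads over 52.15, and that of TUBG-shRNA-MCF10A at 2 h 2.83-fold. The summits there lay within 39 bp.

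The site at 49104316 to 49105063 held the strongest and widest peak of MCF10A cells at 1 h among those on chromosome 4, 734 bp enriched 3.85-fold at a −log10 q-value of 24.6. It also held the widest peaks of TUBG-shRNA-MCF10A, 600 bp at 1 h and 613 bp at 2 h, and was divided into 2 peaks in MCF10A cells at 2 h. On the inner stretch, the site at 49656744 to 49657032 had the highest fold enrichment of TUBG-shRNA-MCF10A at 2 h, 4.63, against 3.44 at 1 h. In MCF10A cells, the fold enrichment there was 3.24 at 1 h and 11.5 at 2 h. The peak from 49108429 to 49108513 was 2nd in the whole MCF10A list at 2 h, enriched 19.8-fold at a −log10 q-value of 56.2, and had a counterpart in MCF10A cells at 1 h but none in TUBG-shRNA-MCF10A. The third peak of MCF10A cells at 1 h, from 49146568 to 49146886, with a fold enrichment of 3.46, was found in each list.

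In U2OS cells, a human osteosarcoma line, the study precipitated chromatin with an antibody against γ-tubulin and looked by PCR for a binding motif of the protein PURA. That assay thus concerned another protein and another cell line than the PCNA lists. It followed the study's report of that motif as enriched in γ-tubulin peaks of MCF10A cells at 1 h that overlapped PCNA peaks. The stated start of the PCR target falls in the outer stretch. The end printed for the target has more digits than a position on this chromosome, so only the start was used. The peak of MCF10A cells at 1 h from 49109328 to 49109532 covered the position at which that target starts, enriched 2.56-fold at a −log10 q-value of 5.50. In MCF10A cells at 2 h, the nearest peak, from 49109073 to 49109499, ended 13 bp before it, with a fold enrichment of 9.88. In TUBG-shRNA-MCF10A, the nearest peaks started 221 bp (1 h) and 228 bp (2 h) beyond it, at 49109733 and 49109740, with fold enrichments of 2.24 and 3.23. Within 10 kb of the target there were 30 and 52 peaks in MCF10A cells and 13 and 13 in TUBG-shRNA-MCF10A. The assembly of the target position is not given in the sources used here and was taken as hg19.

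No peak is shorter than the fragment length set for peak calling, so the shortest peak of a list gives that length. This was 121 bp in MCF10A cells at 1 h, 47 bp at 2 h, and 112 and 115 bp in TUBG-shRNA-MCF10A. The chromosome 4 peaks had median widths of 200 and 131 bp in MCF10A cells at 1 and 2 h, against 147 and 73 bp for all other peaks. In TUBG-shRNA-MCF10A, the medians were 157.5 and 178 bp, against 144 and 150 bp. Relative to the shortest peak, the medians were 1.65 and 2.79 times in MCF10A cells, and 1.41 and 1.55 times in TUBG-shRNA-MCF10A. Peaks wider than 300 bp made up 19.4% and 13.2% in MCF10A cells, against 9.47% and 5.02% of all other peaks, and 6.67% and 5.33% in TUBG-shRNA-MCF10A, against 4.35% and 11.1%. The widest of the chromosome 4 peaks, 850 bp from 49149300 to 49150149, was in MCF10A cells at 2 h. At the 40 sites of all 4 lists, the median width was 276.5 and 269.5 bp in MCF10A and 165 and 192 bp in TUBG-shRNA-MCF10A.

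Fold enrichment, the authors' ratio of reads at the summit to the local background, had a median of 2.93 (range 1.71 to 5.15) in MCF10A cells at 1 h and 9.53 (3.13 to 21.8) at 2 h. In TUBG-shRNA-MCF10A, the medians were 2.504 at 1 h (range 1.74 to 4.12) and 2.76 at 2 h (range 1.85 to 4.63). For all other peaks of the same lists, the medians were 3.17, 5.60, 2.31 and 2.25. Therefore, only in MCF10A cells at 1 h was the median of the chromosome 4 peaks below that of the rest. The median −log10 q-value was above the rest in each list, with 10.0 against 7.59, 22.3 against 8.17, 7.10 against 5.27 and 8.10 against 6.63. A q-value of at most 1e-10 was reached by 50.4% and 84.3% of the chromosome 4 peaks in MCF10A cells and by 26.7% and 34.7% in TUBG-shRNA-MCF10A, against 30.5%, 38.8%, 20.0% and 25.8% of all other peaks. In each list, the outer stretch had the higher median fold enrichment, 3.05 against 2.67, 10.4 against 7.32, 2.53 against 2.31 and 2.79 against 2.61 in the inner one.

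At linked peaks, the fold enrichment was higher at 2 h than at 1 h in all 131 pairs of MCF10A peaks, with a median ratio of 3.39 (quartiles 2.69 and 4.37). The lists were called with different fragment lengths. The median linked summit held 69 reads at 1 h and 43 at 2 h, over a background of 22.6 and 3.52, so that both were lower at 2 h. Per kb of fragment length, the median summit held 570 reads at 1 h and 915 at 2 h, and the median background was 187 and 74.8 reads. The background was lower at 2 h in 129 of the 131 pairs. Its part, and that of the fragment length, in the higher fold enrichment were not tested. In TUBG-shRNA-MCF10A, whose lists had similar fragment lengths, the fold enrichment was higher at 2 h in 34 of 46 pairs, with a median ratio of 1.09 (quartiles 0.996 and 1.28). There, the summit reads per kb were lower at 2 h in all but 2 pairs, and the background was lower in 43.

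Between cell populations at 1 h, where fragment lengths were also similar, the fold enrichment was higher in MCF10A cells in 41 of 53 linked pairs, with a median ratio of 1.17 (quartiles 1.01 and 1.32). The median fold enrichment was 2.89 in MCF10A and 2.48 in TUBG-shRNA-MCF10A. The median summit held 84 reads in MCF10A cells and 78 in TUBG-shRNA-MCF10A, over a background of 27.6 and 33.1. Per kb of fragment length, the summit reads were 694 and 696, higher in MCF10A cells in 17 of the pairs, and the background was 228 and 296, lower in MCF10A cells in 45. The part of either in the difference was not tested. At 2 h, the fold enrichment was higher in MCF10A cells in 71 of 71 pairs, with a median ratio of 3.31, between lists of different fragment length. Across linked pairs, the order of the fold enrichments was partly kept. Spearman's rho, given as a description of peaks that share libraries and control, was 0.59 between time points in TUBG-shRNA-MCF10A (46 pairs) and 0.47 between cell populations at 1 h (53 pairs), but 0.22 in both comparisons with MCF10A cells at 2 h (131 and 71 pairs).

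**Figure D5:**
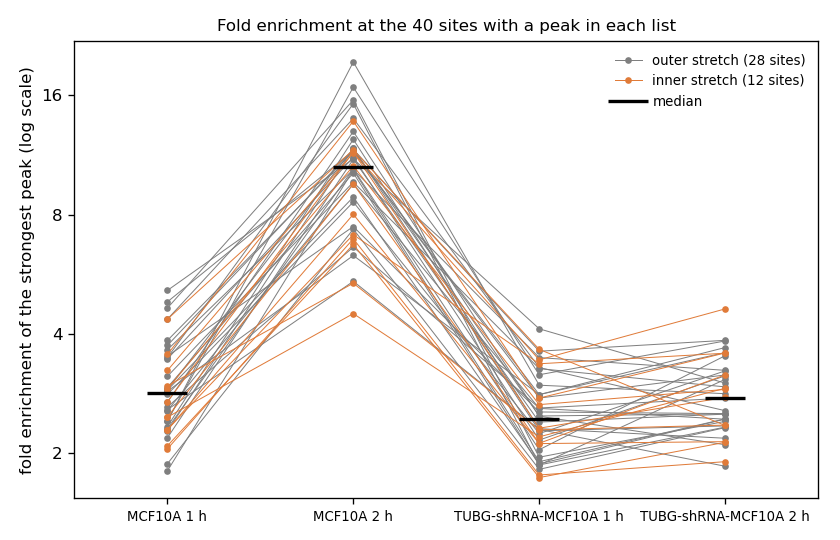
Fold enrichment (logarithmic axis) of the strongest peak of each list at the 40 sites with a peak in all 4 lists, with 1 line per site, colours for the stretch and black bars for the median of each list. The strongest peaks of a site need not overlap each other. The medians were 2.84, 10.5, 2.44 and 2.76, and MCF10A cells at 2 h, called with the shortest fragment length, had the highest value at all 40 sites.

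The files hold no read totals, so depth is known only at the summits. The read number there followed from the deposited fold enrichment and p-value under the Poisson model of the peak caller, and was a whole number for 100% of these peaks. The chromosome 4 summits held a median of 69 reads (range 23 to 127) in MCF10A cells at 1 h and 35 (11 to 81) at 2 h, and 77.5 (47 to 125) and 69 (35 to 109) in TUBG-shRNA-MCF10A. The background at these summits was far above the lowest of each list, by a median factor of 12.1, 5.35, 23.5 and 16.3. This was also so for all other peaks of the lists, with factors of 8.38, 5.35, 22.6 and 32.1. On chromosome 16, the corresponding factors were 64.2, 8.03, 81.1 and 73.0, with median fold enrichments of 1.71, 4.58, 1.68 and 1.83. On chromosome 10, the factors were 6.75, 5.35, 31.1 and 35.3, with median fold enrichments of 3.53, 6.42, 2.173 and 1.95. The chromosome 4 pericentromeric peaks thus had the highest median fold enrichment of these 3 sets in each list but that of MCF10A cells at 1 h. In that list, chromosome 10 had the higher one over a lower background. The sets are unlike, since chromosomes 10 and 16 were taken whole and chromosome 4 peaks outside the window were left out.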

How the data were processed

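PCNA ChIP-seq lists of 4 conditions were analysed, each called by the authors on 2 libraries together. The submitters' processing notes name hg19, Bowtie 1.0.0, MACS2 2.1.1 and bedtools 2.17.0. The treatment of repeated alignments and duplicate reads is not given in the sources used here. The deposited lists hold for each peak the fold enrichment (a ratio to the local background), the −log10 p-value, the −log10 q-value and a score, a rescaled −log10 q-value that was not used. Whole-cell lysate libraries were not analysed here, and no hg19 sequence or annotation was used.

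Peaks were counted and linked with pandas 2.3.3, numpy 2.4.6 and scipy 1.17.1 under Python 3.11.15, and plotted with matplotlib 3.10.9. Shares have 95% Wilson intervals and ratios 95% exact binomial intervals. Peaks of different lists were linked when at least 25% of both was shared, and sites are connected groups of linked peaks. Reads and background at the summit were solved from the fold enrichment (pseudocount 1) and the p-value, with a tolerance of 0.0003 in its −log10. The steps were tested on simulated data. No test between conditions was made.

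Singly named peaks are the 3 of each list with the highest −log10 q-value, the widest, those with the highest fold enrichment, those nearest to the PCR target, those outside 49 to 50 Mb and sites found in all lists. Not all of them are described. The isolated peak between the stretches, the strongest unmatched peak and the limits of the stretches were chosen after their values were seen. The peaks and the comparisons were chosen with earlier results of these data known.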

Additional observations from a re-analysis of the deposited data

How the results depend on the processing

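No paired analysis was possible because the 2 libraries of a condition share 1 list, and for that reason no replicate could be left out. Counting only starts from 49 to 50 Mb, or a q-value limit of 1e-05, changed none of the 4 peak numbers by over 1.5 times and none of their ratios by more than the counting interval, but the latter moved the recurrence values given last.

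With a q-value of at most 1e-10, 65 peaks were left in MCF10A cells at 1 h and 16 (1 h) and 26 (2 h) in TUBG-shRNA-MCF10A. The ratio of 2 h to 1 h in MCF10A cells was then 3.63, and those of MCF10A to TUBG-shRNA-MCF10A 4.06 (1 h) and 9.08 (2 h). A fold enrichment of at least 5 left 2 peaks in MCF10A cells at 1 h and 0 in both TUBG-shRNA-MCF10A lists, with a ratio of 132 in MCF10A cells, and ratios to TUBG-shRNA-MCF10A have no value. Joining peaks within 1 kb left 17, 3, 29 and 36 regions (MCF10A 1 h and 2 h, TUBG-shRNA-MCF10A 1 h and 2 h). It reversed the ratio of 2 h to 1 h in MCF10A cells to 0.176 and those of MCF10A to TUBG-shRNA-MCF10A to 0.586 (1 h) and 0.0833 (2 h), since dense peaks merge. The interval of the ratio of 0.586 included 1 (0.302 to 1.10). At least 47 summit reads, the common minimum, left 79 peaks in MCF10A cells at 2 h, reversed their ratio to 1 h to 0.632 and moved that to TUBG-shRNA-MCF10A to 1.16. The fragment length was shortest in that list, and its part was not tested. In base pairs covered, the ratio in MCF10A cells was 1.48.

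When 50% of both peaks had to be shared, 69.8% of MCF10A peaks at 1 h recurred at 2 h and 32.1% in the other direction. Of TUBG-shRNA-MCF10A peaks, 56.7% (1 h) and 64.0% (2 h) then lay at MCF10A peaks, and of MCF10A peaks 26.4% and 17.1% at TUBG-shRNA-MCF10A peaks. With 1 bp shared, 99.2% and 53.6% recurred between time points in MCF10A cells, and 100% of TUBG-shRNA-MCF10A peaks lay at MCF10A peaks at 2 h. With summits at most 50 bp apart, the shares were 68.2% and 31.4% between time points in MCF10A cells, 60.0% and 48.0% in TUBG-shRNA-MCF10A, 73.3% (1 h) and 64.0% (2 h) of TUBG-shRNA-MCF10A peaks in MCF10A cells, and 17.1% of MCF10A peaks at 2 h, and 20 sites were found in all 4 lists. With a q-value of at most 1e-05 in both lists, 47.5% of TUBG-shRNA-MCF10A peaks at 2 h recurred at 1 h, and 24 sites were in all 4 lists. Measured from end to start, the median spacing was 312.5 bp (1 h) and 123 bp (2 h) for MCF10A cells, and 814 bp for TUBG-shRNA-MCF10A at 2 h. For these shifts, the cause was not tested, apart from the merging, which the joining itself makes.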
